A study of Mus musculus and synthetic construct with 3 samples.

Results

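The cathepsins are proteases of the lysosome, and 9 of their genes, Ctsa, Ctsb, Ctsc, Ctsd, Ctsh, Ctsk, Ctsl, Ctss and Ctsz, were followed here across sections of mouse aorta. They were chosen by gene symbol, and all 9 were found among the 32285 genes counted. The tissue was suprarenal abdominal aorta of male Apoe -/- mice, which lack apolipoprotein E, kept on a normal diet and 16 weeks old in the labels. In the AAA group, minipumps delivered angiotensin II (AngII, 1000 ng/ml in the labels) for 4 weeks, and the 3 mice used were those of 5 that developed an abdominal aortic aneurysm (AAA), so AngII-infused mice without AAA are not represented. Pumps of the 3 control mice delivered saline for the same time. Each AAA aorta was embedded together with a control aorta, and 10 sections of 10 μm per condition (3, 3 and 4 per mouse) were placed on a Seq-Scope array. Seq-Scope captures polyadenylated RNA on a surface of barcodes with known positions and counts molecules by unique molecular identifiers (UMIs). The UMIs were binned in hexagons with sides of 12 μm, which can hold several cells or part of one, and hexagons with 75 or more genes were kept. Exonic UMIs were counted and summed per mouse, and a level below is the number of UMIs of a gene per 10000 UMIs of all genes. Which section belonged to which mouse was read from the section outlines that the study drew on the array, because the sample labels do not state it.

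Cathepsins are made as inactive precursors and become active in acidic lysosomes, where they break down proteins taken up or discarded by the cell. Most are cysteine proteases (Ctsb, Ctsc, Ctsh, Ctsk, Ctsl, Ctss and Ctsz), whereas Ctsd is an aspartic protease and Ctsa a serine carboxypeptidase. Ctsb, Ctsd, Ctsk, Ctsl and Ctss cut within protein chains (endopeptidases), and Ctsa, Ctsc, Ctsh and Ctsz trim chains from an end (exopeptidases), with Ctsb and Ctsh able to do both. In the arterial wall, secreted Ctsk, Ctsl and Ctss can degrade elastin and collagen, and cystatin C, encoded by Cst3, inhibits the cysteine cathepsins. Gpnmb, used below to divide the hexagons, encodes a transmembrane glycoprotein that lipid-loaded macrophages express.

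The members lie on 6 chromosomes of GRCm38 (GENCODE M21). Ctsk (chr3:95499256-95509362, plus strand) and Ctss (chr3:95526786-95556403, plus strand) are neighbours, with 17423 bases and the start of no other gene between them. Ctsc (chr7:88278085-88310888, plus strand) and Ctsd (chr7:142375911-142388038, minus strand) share chromosome 7, and Ctsa (chr2:164832873-164841032, plus strand) and Ctsz (chr2:174427493-174439039, minus strand) share chromosome 2. Ctsb lies at chr14:63122462-63145923 (plus strand), Ctsh at chr9:90054152-90076089 (plus strand) and Ctsl at chr13:64359337-64370890 (minus strand). Ctsb overlaps Fdft1, Ctsz overlaps Nelfcd, Ctsa overlaps Neurl2 and Pltp and Ctsc overlaps Gm26522, in each case on the opposite strand. Genes annotated on the same strand overlap Ctsd (Gm49369, protein-coding), Ctsl (the pseudogene Gm49230, besides Gm47123 on the opposite strand) and Ctss (the pseudogene Hmgb1-ps5), so the counts of these 3 genes are uncertain where reads could be shared.

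Promoters are shown for Ctsd, Ctsl and Ctss, 3 of the 4 endopeptidase genes that rose together in AAA aortas, as described below, because lysosomal genes are known for the motif CACGTG, the core of the element bound by TFEB, a regulator of lysosome formation. From RefSeq (GRCm38.p6), promoters of 300 bases (250 before to 50 after the start site) were matched for 7 of the 9 members, all but Ctsb and Ctsh, with 8 promoters, since Ctsa has a pair of them. The motif CACGTG, which reads the same on both strands, occurred in those of Ctsd and Ctsl and in 1 of those of Ctsa, which did not pass the test between AAA and control. Counted by promoter it was in 3 of 8 of the members and in 2349 of 32851 of all genes (7.15%), and counted by gene in 3 of 7 members and in 2187 of 27025 genes (8.09%). The longer form GTCACGTG, searched on both strands and contained in the shorter one, occurred in that of Ctsd and in 1 of those of Ctsa (2 of 8 promoters) and in 738 of all promoters (2.25%). In the following promoters, written 5′ to 3′ on the strand of the gene, CACGTG is in capitals: Ctsd (chr7:142387778-142388077, minus strand) has it 245 and 98 bases before the start site, Ctsl (chr13:64370471-64370770, minus strand) has it 236 bases before, and Ctss (chr3:95526536-95526835, plus strand) does not have these letters in the window.
Ctsd: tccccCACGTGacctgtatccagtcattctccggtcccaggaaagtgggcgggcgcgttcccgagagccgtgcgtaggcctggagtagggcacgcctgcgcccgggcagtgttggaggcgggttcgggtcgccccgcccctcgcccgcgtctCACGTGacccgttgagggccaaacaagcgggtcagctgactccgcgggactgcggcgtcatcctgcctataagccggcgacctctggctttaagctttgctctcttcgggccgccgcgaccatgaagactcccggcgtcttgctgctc
Ctsl: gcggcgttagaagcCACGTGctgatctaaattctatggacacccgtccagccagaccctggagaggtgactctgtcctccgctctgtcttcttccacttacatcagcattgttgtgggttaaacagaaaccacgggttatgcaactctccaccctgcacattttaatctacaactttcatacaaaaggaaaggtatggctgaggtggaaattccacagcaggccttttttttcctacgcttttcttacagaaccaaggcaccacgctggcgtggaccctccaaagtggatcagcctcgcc
Ctss: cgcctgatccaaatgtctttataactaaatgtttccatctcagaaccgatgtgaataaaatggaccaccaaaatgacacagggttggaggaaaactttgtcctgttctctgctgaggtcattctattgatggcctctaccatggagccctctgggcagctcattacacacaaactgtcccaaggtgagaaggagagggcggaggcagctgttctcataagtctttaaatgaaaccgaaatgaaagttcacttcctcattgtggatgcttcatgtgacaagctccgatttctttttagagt
Such a match is a description of the sequence, and no binding was measured. The start sites are those of RefSeq, and GENCODE M21 begins Ctsl and Ctsd farther upstream. By its positions the whole Ctsl window, and the Ctsd motif nearer to the start site, lie within the annotated genes.

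The sections held 4939 kept hexagons. AAA mice 1, 2 and 3 had 2657, 890 and 890 hexagons with 336757, 109626 and 97001 UMIs, and control mice 1, 2 and 3 had 282, 123 and 97 hexagons with 34168, 13312 and 9759 UMIs. Control values therefore rest on far fewer molecules. The median per kept hexagon was similar (101 to 109 UMIs in AAA mice and 94 to 107 in control mice), but the gene minimum itself selects hexagons by depth. Without it the sections held 979618, 464937 and 678645 UMIs in AAA mice, against 172848, 151489 and 199446 in control mice. Most UMIs were thus left out in every mouse, and a larger part in each control mouse than in the AAA mouse of the same number. Smooth muscle markers were present in every mouse (summed level of 8 genes 77.8 to 126 in AAA mice, against 228 to 320 in control mice). Liver genes, which aorta should lack, were present in every mouse as well (summed level of 5 genes 144 to 159 in AAA mice, against 136 to 199 in control mice). Red cell genes stood apart in control mouse 2 (189 per 10000, against 8.2 to 17.9 in the other control mice and 10.0 to 14.1 in AAA mice).

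Comparing AAA with control aortas over all kept hexagons asked which cathepsins differed with the disease. Cathepsin RNA was higher in AAA: Ctsb, Ctsd, Ctsl, Ctss and Ctsh rose, with log2 fold changes between 1.01 and 1.83, and none fell. Among endopeptidases, 4 of 5 rose and Ctsk was too low to be tested. Among exopeptidases, 1 of 4 (Ctsh) rose, Ctsz and Ctsa did not pass the threshold and Ctsc was not tested. A difference between these kinds of protease was not tested. The test was edgeR's quasi-likelihood test on UMIs summed per mouse, with adjusted p under 0.05 (Benjamini-Hochberg over 1180 genes) as the threshold. Of the 7 members that passed the filter on low counts 5 were called higher, against a background of 29 of 1180 genes (2.46%) called higher and 40 (3.39%) called lower. The median log2 fold change was 1.20 over these 7 members and 0.03 over all genes tested. Fewer cells of a type and less RNA per cell cannot be told apart in such sums.

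Ctsb encodes a protease with both endopeptidase and dipeptidase action. Its level was 12.03, 13.2 and 12.8 in AAA mice, against 6.44, 2.25 and 5.12 in control mice (405, 145 and 124 UMIs, against 22, 3 and 5). All AAA mice lay above all control mice, and the exact 95% intervals for counting, 10.6 to 15.6 over the AAA mice and 0.465 to 11.95 over the control mice, overlapped only at the upper end of control mouse 3. The log2 fold change was 1.30 (SE 0.29, adjusted p = 0.00469, edgeR).

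Ctsd encodes the main aspartic protease of the lysosome. Its level was 16.04, 19.5 and 25.98 in AAA mice, against 9.66, 6.01 and 16.4 in control mice. The groups overlapped, since AAA mouse 1 lay just under control mouse 3, and the log2 fold change was 1.01 (SE 0.27, adjusted p = 0.0214, edgeR).

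Ctsl and Ctss, both elastin-degrading cysteine proteases, were higher in every AAA mouse than in any control mouse. Ctsl had levels of 6.15, 9.30 and 7.01 in AAA mice, against 2.63, 4.51 and 3.07 in control mice (log2 fold change 1.20, SE 0.35, adjusted p = 0.0369, edgeR). Ctss, which also processes the invariant chain in antigen-presenting cells, had levels of 3.59, 4.29 and 3.71 in AAA mice, against 0.59, 3.00 and 0 in control mice. These control levels came from 2, 4 and 0 UMIs, and the 0 of control mouse 3 allows a level of up to 3.07. The log2 fold change was 1.83 (SE 0.53, adjusted p = 0.0381, edgeR).

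Among the exopeptidases, Ctsh, mainly an aminopeptidase, had levels of 3.59, 3.19 and 3.09 in AAA mice, against 0.88, 0.75 and 2.05 in control mice. The groups did not overlap, although the control levels came from 3, 1 and 2 UMIs, and the log2 fold change was 1.67 (SE 0.49, adjusted p = 0.0414, edgeR). With the pair of aortas embedded together as a block, Ctsh lost its call (adjusted p = 0.0949) and 4 members were called. Ctsz, a carboxypeptidase, had nearly equal levels in AAA mice, 5.08, 5.11 and 5.15, against 3.80, 3.00 and 1.02 in control mice (log2 fold change 0.71, adjusted p = 0.312, edgeR). Ctsa, which protects and activates other lysosomal enzymes besides cutting proteins, had levels of 3.24, 2.55 and 2.99 in AAA mice, against 1.76, 3.00 and 1.02 in control mice, with overlap (log2 fold change 0.64, adjusted p = 0.486, edgeR).

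Both members that were not tested had low counts. Ctsc, the dipeptidyl peptidase that activates granule serine proteases, had levels of 1.31, 1.46 and 1.34 in AAA mice, against 2.05, 3.00 and 1.02 in control mice, from 7, 4 and 1 UMIs in the control mice. Ctsk, known as the collagenase of osteoclasts, had 8, 1 and 5 UMIs in AAA mice and 0 in each control mouse. Since 0 of 57239 control UMIs allows a level of up to 0.524 and the level over all AAA UMIs was 0.258, a difference in Ctsk was not detectable at this depth.

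**Figure D1:**
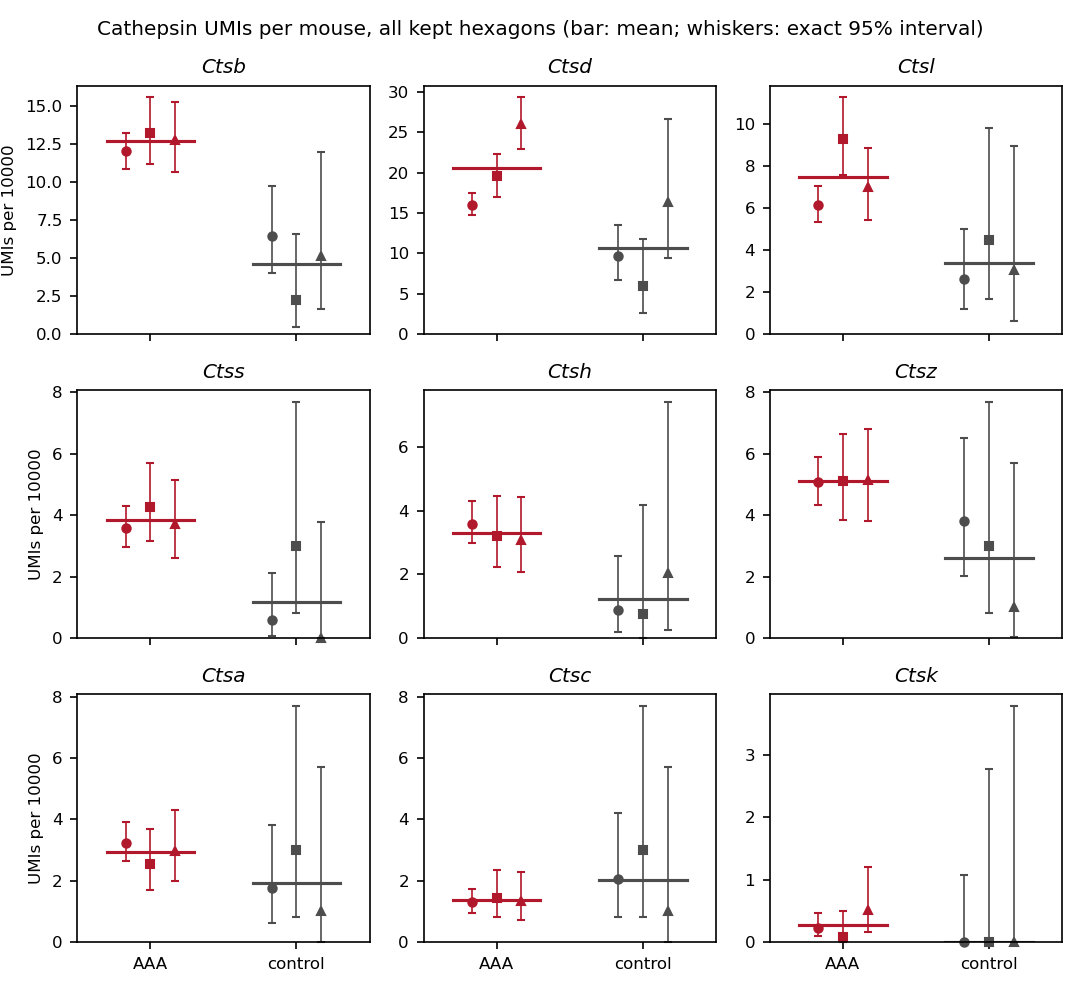
UMIs per 10000 UMIs (vertical axis) of each cathepsin gene in the 3 AAA and 3 control mice (horizontal axis), over all kept hexagons; points are mice, bars their mean, and whiskers the exact 95% interval for counting. For Ctsb, Ctsl, Ctss, Ctsh, Ctsz and Ctsk all AAA points lie above all control points, whereas Ctsd, Ctsa and Ctsc overlap, and the whiskers are wide in the control mice. The share of all genes that separate in this way was not counted.

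Summed over the 9 members, cathepsins made up 51.3, 58.7 and 62.6 of 10000 UMIs in AAA mice, against 27.8, 25.5 and 29.7 in control mice. The single sections, which are not independent within a mouse, were separated in the same way. The lowest, median and highest summed level were 48.5, 59.8 and 74.2 over 10 AAA sections, against 14.3, 26.4 and 38.7 over 10 control sections. For Ctsb alone the sections overlapped (9.49, 13.3 and 23.5 in AAA sections, against 0, 4.60 and 19.3 in control sections), with 64 to 1222 hexagons per AAA section and 6 to 153 per control section. Macrophage markers moved with the cathepsins: their summed level over 11 genes was 35.7, 37.4 and 35.5 in AAA mice, against 12.6, 20.3 and 11.3 in control mice, and 4 of the 6 tested (Lyz2, C1qa, C1qb and C1qc) rose. Other cell markers moved as well: 6 of 8 collagen genes rose (summed level 194, 141 and 186 in AAA mice, against 81.7, 82.6 and 72.8 in control mice), and all 7 smooth muscle genes tested fell. The median log2 fold change was 1.44 for the macrophage, 1.28 for the collagen and -1.30 for the smooth muscle genes tested. In hexagons without any macrophage marker UMI, Ctsb was called higher (log2 fold change 1.10, adjusted p = 0.0178, edgeR on 856 genes), whereas Ctsd (0.68, adjusted p = 0.209), Ctsl (0.89, 0.163), Ctss (1.22, 0.298) and Ctsh (1.32, 0.194) did not pass. The hexagons left out there numbered 825, 275 and 241 in AAA mice, against 39, 24 and 11 in control mice. In hexagons without a Gpnmb UMI, Ctsb (1.09, adjusted p = 0.0204) and Ctsd (0.91, adjusted p = 0.0325) rose. At this depth a hexagon can lack a marker UMI although it holds such a cell, so neither subset is free of macrophages. The part of these cell types in the differences was not tested. With DESeq2 in place of edgeR, or without control mouse 1, which held most control UMIs, only Ctsb was called (adjusted p for DESeq2 0.0046), and with 100 or more genes per hexagon only Ctss and Ctsh were called (Ctsb adjusted p = 0.106).

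Other genes of the pathway were followed as lists. None of 12 inhibitor genes passed (3 tested). Cst3 had levels of 60.7, 46.2 and 53.0 in AAA mice, against 47.7, 32.3 and 42.0 in control mice (log2 fold change 0.37, adjusted p = 0.337, edgeR). Of 31 further lysosome genes 16 were tested and 1 rose, Lamp1, a glycoprotein of the lysosomal membrane, with levels of 12.3, 15.4 and 15.4 in AAA mice, against 7.90, 6.01 and 5.12 in control mice (log2 fold change 1.05, adjusted p = 0.0117). The median of the tested lysosome genes was 0.73, against 1.20 for the cathepsins and 0.03 for all genes. Of 12 matrix genes whose products cathepsins can cut 10 were tested and 1 rose, Dcn (decorin; log2 fold change 1.27, adjusted p = 0.011), which is also a collagen fibroblast marker, and Eln, encoding elastin, had a log2 fold change of 0.06 (adjusted p = 0.945). None of 14 other cathepsin genes was tested. Ctsf and Ctso had 60 and 26 UMIs over all 6 mice, and none of the rest had more than 3.

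Hexagons with and without Gpnmb were then compared within the 3 AAA mice, to ask where in the aneurysm the cathepsins lay. Ctsb was higher in hexagons with Gpnmb and was the only gene of 1034 tested that passed the threshold, whereas Ctsl, Ctsd, Ctss and Ctsz were higher in each mouse without passing it. The share of all genes that were higher in each mouse was not counted. Ctsh and Ctsa overlapped between the classes. Hexagons with at least 1 Gpnmb UMI numbered 152, 71 and 89 (5.72, 7.98 and 10.0%) in AAA mice, and their median depth was 114.5, 131 and 111 UMIs, against 109, 107 and 100 UMIs in hexagons without Gpnmb. Of 7 members tested 1 was called, against a background of 1 of 1034 genes (0.0967%), which is Ctsb itself, and 5 of 7 had an unadjusted p under 0.05, as had 65 of all genes. The median log2 fold change was 0.86 over the 7 members and -0.07 over all genes.

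The level of Ctsb was 22.8, 36.3 and 30.8 in hexagons with Gpnmb, against 11.3, 11.0 and 10.5 in those without (log2 fold change 1.30, SE 0.20, adjusted p = 0.0127, edgeR with the mouse as a block). These hexagons held 6.39, 8.80 and 11.0% of all UMIs but 12.1, 24.1 and 26.6% of the Ctsb UMIs. Ctsb was thus above its share in each mouse. Without AAA mouse 1 the adjusted p was 0.0839 and without AAA mouse 2 it was 0.182, so the call was lost, whereas without AAA mouse 3 it held (0.0395). It was also lost without a filter on low counts (log2 fold change 0.61, adjusted p = 0.541) and with 100 or more genes per hexagon (1.44, adjusted p = 0.0774).

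Ctsl, Ctsd and Ctss, the other endopeptidases tested, had larger values with Gpnmb in each mouse. Ctsl had levels of 12.6, 25.9 and 11.2 with Gpnmb, against 5.71, 7.70 and 6.49 without (log2 fold change 1.18, adjusted p = 0.0719, edgeR). Ctsd had levels of 24.6, 31.1 and 57.0 with Gpnmb, against 15.4, 18.4 and 22.1 without (0.86, adjusted p = 0.075). For both genes the classes did not overlap, and 1 mouse stood out in each, AAA mouse 2 for Ctsl and AAA mouse 3 for Ctsd. How many other genes had classes without overlap was not counted. Ctss was even between mice, with levels of 7.44, 8.29 and 8.41 with Gpnmb, against 3.33, 3.90 and 3.13 without (1.13, adjusted p = 0.28). Ctsk had 0 UMIs in hexagons with Gpnmb in every AAA mouse, where 41863 UMIs were counted in all, so its 14 UMIs in AAA aortas all lay in hexagons without Gpnmb. These counts of 0 allow levels of up to 1.39, 3.11 and 2.80, above the 0.25, 0.10 and 0.58 without Gpnmb. A difference in Ctsk was thus not detectable here.

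Of the exopeptidases, Ctsz had levels of 9.76, 8.29 and 6.54 with Gpnmb, against 4.76, 4.80 and 4.98 without (log2 fold change 0.75, adjusted p = 0.545, edgeR). Ctsh, which rose between AAA and control, had overlapping levels in the classes, 3.25, 3.11 and 4.67 with Gpnmb, against 3.62, 3.20 and 2.90 without (0.04, SE 0.43, adjusted p = 1.00). Ctsa had levels of 6.97, 0 and 2.80 with Gpnmb, against 2.98, 2.80 and 3.01 without (0.39, SE 0.55). Ctsc had levels of 0.93, 2.07 and 1.87 with Gpnmb, against 1.33, 1.40 and 1.27 without, and was not tested.

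**Figure D2:**
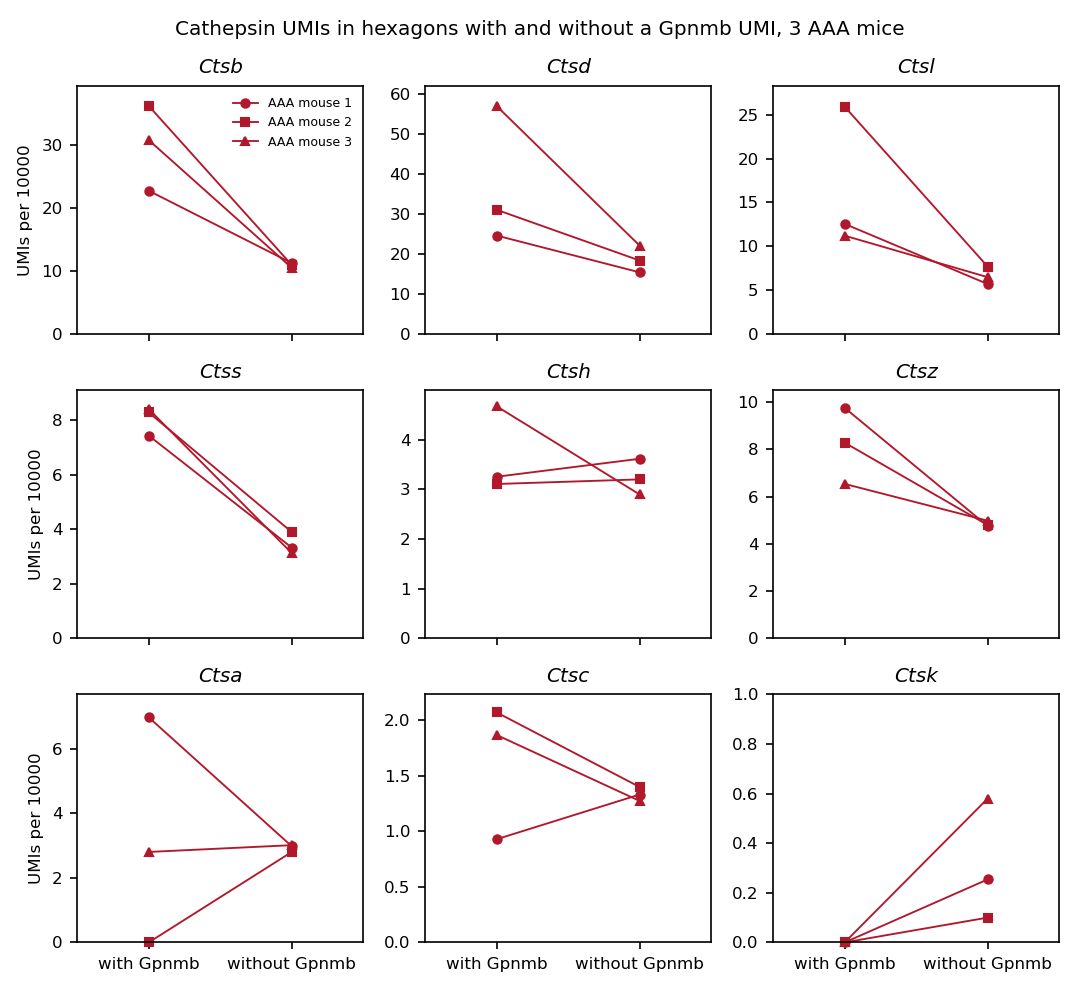
UMIs per 10000 UMIs (vertical axis) of each cathepsin gene in hexagons with and without a Gpnmb UMI (horizontal axis); each line joins the classes of 1 AAA mouse. Lines for Ctsb, Ctsd, Ctsl, Ctss and Ctsz fall toward the hexagons without Gpnmb in all 3 mice, whereas those for Ctsh, Ctsa and Ctsc cross.

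The summed level of the macrophage markers was 45.1, 79.8 and 52.3 with Gpnmb, against 35.1, 33.3 and 33.4 without, and none of 6 tested genes passed. Single markers differed in direction: Lyz2 had levels of 14.9, 37.3 and 18.7 with Gpnmb, against 9.48, 9.00 and 7.42 without, whereas C1qa had levels of 4.18, 7.25 and 1.87 with Gpnmb, against 4.88, 5.00 and 4.75 without. Liver genes had similar levels in both classes, with a mean over mice of 146 with Gpnmb, against 149 without. None of 16 lysosome genes, 3 inhibitor genes or 10 matrix genes passed in this comparison. Psap, encoding the precursor of the saposins, came nearest among the lysosome genes, with levels of 51.6, 76.7 and 48.6 with Gpnmb, against 30.8, 30.3 and 35.9 without (log2 fold change 0.76, adjusted p = 0.0881, edgeR). In control mice only 17 hexagons held Gpnmb (8, 6 and 3), with 6 cathepsin UMIs among 1833, which is too few for a test. Their summed cathepsin level was 34.1, 30.3 and 34.0, against 27.6, 25.3 and 29.6 in control hexagons without Gpnmb.

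To set the classes side by side where both held a macrophage transcript, the comparison was repeated in AAA hexagons with at least 1 macrophage marker UMI. Ctsb again was the only gene called, now of 247 tested (0.405%), and 1 of 5 members tested was called. Its level was 36.6, 48.3 and 43.2 in macrophage hexagons with Gpnmb, against 12.7, 13.7 and 12.1 in macrophage hexagons without (log2 fold change 1.69, SE 0.22, adjusted p = 0.0174, edgeR), and these classes held 67, 34 and 32 hexagons with Gpnmb. Ctsd had levels of 30.3, 44.2 and 97.8 with Gpnmb, against 19.9, 19.4 and 25.4 without (1.23, adjusted p = 0.0883). Ctss had levels of 8.92, 16.1 and 15.9 with Gpnmb, against 4.12, 5.08 and 4.58 without (1.41, adjusted p = 0.0883). For these genes the classes did not overlap, whereas Ctsl (1.27, adjusted p = 0.286) and Ctsz (0.89, adjusted p = 0.354) varied more between mice. Of the 247 genes tested, the share whose classes did not overlap was not counted. The summed macrophage markers overlapped between the classes here, at 86.5, 155 and 127 with Gpnmb, against 104, 106 and 120 without. The call for Ctsb was lost without AAA mouse 1 (adjusted p = 0.23), without AAA mouse 2 (0.299) and without a filter on low counts (log2 fold change 0.66, adjusted p = 0.866), and it held without AAA mouse 3 (0.0253).

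Distance from Gpnmb was examined among the AAA hexagons that held no Gpnmb UMI. Those within 45 μm of a hexagon with Gpnmb, the distance the study used for neighbours, were compared with those farther away. Only kept hexagons were searched for Gpnmb. A hexagon counted as farther away may therefore lie beside one with Gpnmb that the gene minimum left out. No gene of 990 tested was called in either direction (0%), although 48 had an unadjusted p under 0.05, and none of the 7 members tested had one. All 7 log2 fold changes were above 0, from 0.03 for Ctsb (SE 0.17) to 0.38 for Ctsl (SE 0.21), with adjusted p from 0.974 to 0.993 (edgeR), and their median was 0.18, against 0.01 for all genes. In steps of distance, the summed cathepsin level was 88.3, 115.0 and 123.3 in hexagons that held Gpnmb and 56.9, 55.2 and 83.5 within 30 μm. It was 46.4, 50.8 and 54.8 between 30 and 60 μm, 46.0, 57.8 and 44.6 between 60 and 120 μm, and 48.5, 48.0 and 45.3 beyond 120 μm. In each mouse the summed level was highest in the hexagons with Gpnmb themselves. Within 30 μm each mouse lay above its own next step, AAA mouse 3 by the most, and its Ctsb level there was 18.9, against 12.3 and 12.6 in AAA mice 1 and 2. Beyond 120 μm Ctsb had levels of 13.4, 13.9 and 9.20.

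**Figure D3:**
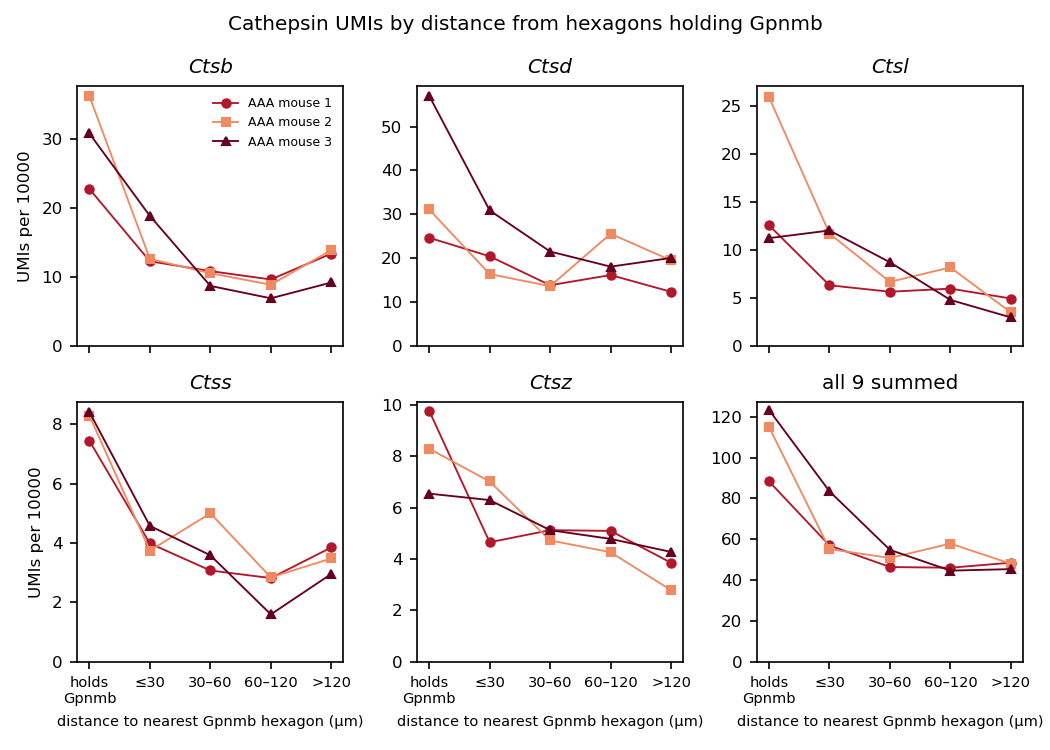
UMIs per 10000 UMIs (vertical axis) of 5 cathepsin genes and of all 9 summed, by distance in μm from the nearest kept hexagon with Gpnmb (horizontal axis, in unequal steps). Each line is 1 AAA mouse. The summed level is 88.3 to 123.3 in hexagons that hold Gpnmb and 44.6 to 57.8 from 30 μm outward.

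Hexagons rich in collagen transcripts and hexagons rich in smooth muscle transcripts were compared within the AAA mice, as stand-ins for adventitial and medial tissue. No cathepsin passed the threshold between them. A hexagon was assigned to a class by 3 or more UMIs of 8 marker genes of 1 kind and fewer of the other, which gave 882, 223 and 238 collagen and 258, 62 and 144 smooth muscle hexagons, and the markers were left out of the test. None of 5 members tested was called, against a background of 17 of 442 genes (3.85%) called higher and 35 (7.92%) called lower in collagen hexagons. Ctsd had levels of 15.4, 22.4 and 23.9 in collagen hexagons, against 11.8, 12.3 and 21.3 in smooth muscle hexagons (log2 fold change 0.33, SE 0.20, adjusted p = 0.382, edgeR). Ctsb had levels of 11.7, 10.0 and 11.6 in collagen hexagons, against 9.46, 24.7 and 15.0 in smooth muscle hexagons, where AAA mouse 2 stood above the others (-0.32, SE 0.25, adjusted p = 0.548). Ctsl (-0.39, SE 0.36), Ctss (0.06, SE 0.38) and Ctsz (-0.02, SE 0.39) were near 0 relative to their errors. The summed level was 52.2, 56.9 and 55.4 in collagen hexagons, against 40.2, 69.9 and 61.9 in smooth muscle hexagons, and it overlapped.

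Inhibitors and matrix genes did differ between these classes. In collagen hexagons Cst3 (log2 fold change 0.74, adjusted p = 2.84e-11, edgeR) and Serpina3n, a serine protease inhibitor (1.54, adjusted p = 0.0172), were higher, 2 of 3 inhibitor genes tested. Eln (-1.57, adjusted p = 2.56e-10), Fn1 (fibronectin; -1.22, adjusted p = 2.56e-18) and Bgn (biglycan; -0.38, adjusted p = 0.0176) were lower, 3 of 7 matrix genes tested. None of 10 lysosome genes passed. Without AAA mouse 3 no gene passed in this comparison in either direction.

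**Figure D4:**
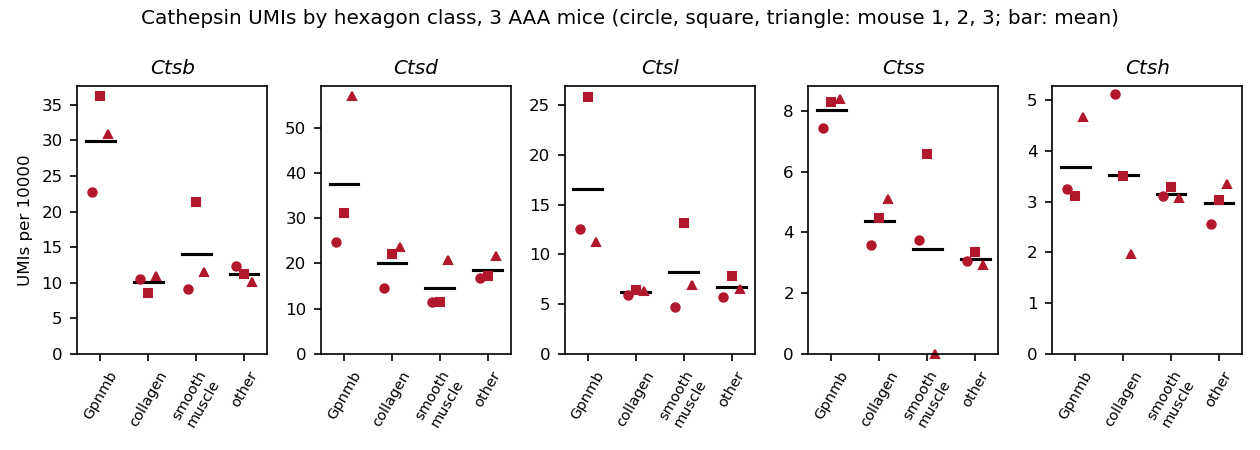
UMIs per 10000 UMIs (vertical axis) of 5 cathepsin genes in AAA hexagons with Gpnmb and, of the rest, in collagen, smooth muscle and other hexagons (horizontal axis); points are the 3 AAA mice and bars their mean. Ctsb, Ctsd, Ctsl and Ctss have their highest mean in hexagons with Gpnmb, whereas the mean of Ctsh is similar in all classes.

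Within smooth muscle hexagons, AAA and control mice were compared, since control mice had more hexagons of this class (132, 55 and 48) than collagen hexagons (18 in all). Only Ctsb and Ctsd had enough counts for the test, and neither passed, nor did any other of 129 genes (0%), of which 22 had an unadjusted p under 0.05. Ctsb had levels of 9.46, 24.7 and 15.0 in AAA mice, against 5.13, 0 and 3.90 in control mice, without overlap (log2 fold change 1.92, SE 0.56, adjusted p = 0.0996, edgeR). These control levels rest on few molecules, since the control mice held only 22, 3 and 5 Ctsb UMIs over all kept hexagons. With the embedding pair as a block its adjusted p was 0.0135 (log2 fold change 1.87). Ctsd had levels of 11.8, 12.3 and 21.3 in AAA mice, against 9.61, 4.55 and 13.6 in control mice, with overlap (0.68, SE 0.41, adjusted p = 0.447). The share of the 129 genes tested whose groups did not overlap was not counted. Ctsb was also called with 50 or more genes per hexagon (adjusted p = 0.0193) and with UMIs over whole genes (0.0282).

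**Figure D5:**
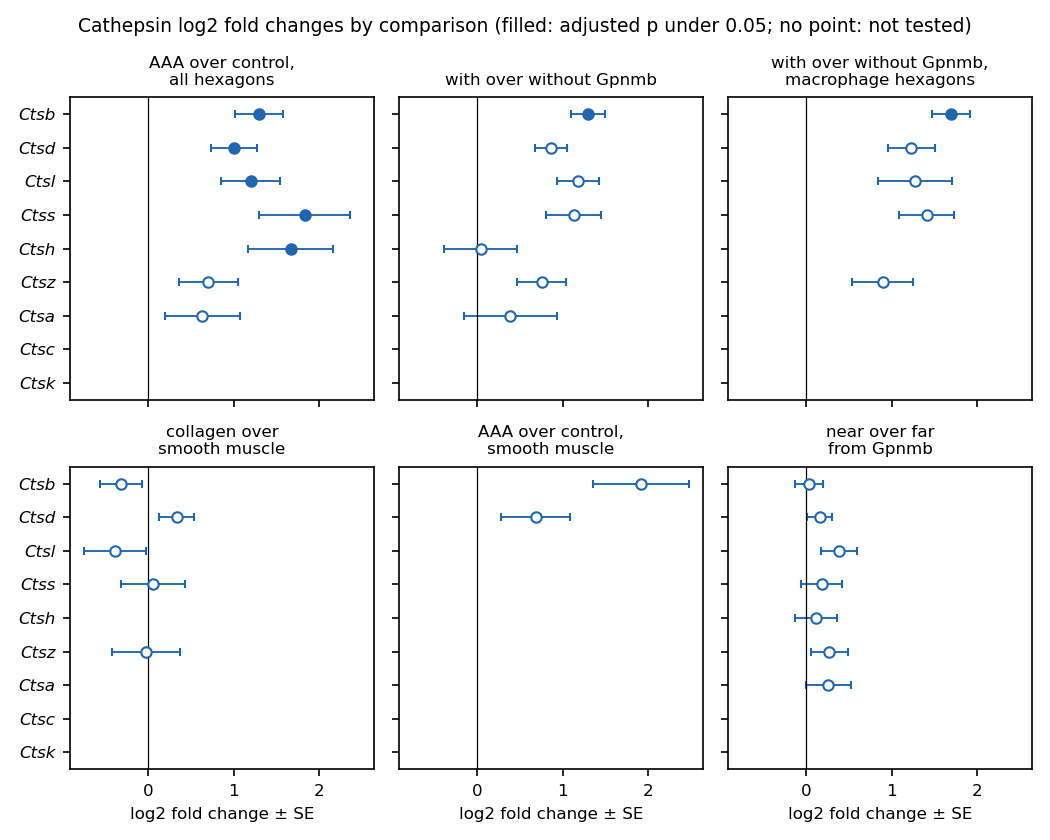
Log2 fold change with its SE (horizontal axis) of each cathepsin gene (vertical axis) in the 6 comparisons; filled points passed an adjusted p of 0.05 and genes with no point were not tested. The 5 filled points over all hexagons and the single filled point for Ctsb in each comparison by Gpnmb are the only calls.

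The genes whose levels followed the summed members most closely were sought among 377 genes with 200 or more UMIs, over 12 profiles (3 AAA mice by hexagons with Gpnmb and, of the rest, smooth muscle, collagen and other hexagons). By Pearson correlation of log2(CPM + 50), where CPM is the level scaled to a common total, the first 10 included Gpnmb (0.94), which defined 1 class, Rpl17 (0.91), Lyz2 (0.86), Psap (0.84), Lgals3 (0.84), Aldh2 (0.79), Cyba (0.78), Cd63 (0.74) and Eif4g2 (0.68). The 4 profiles of a mouse share its library and depth, so these values are descriptions. Lyz2 (lysozyme) and Lgals3 (galectin 3) are macrophage products, Cyba encodes a subunit of the phagocyte oxidase, and Psap and Cd63 encode lysosomal proteins. Rpl17, Aldh2 and Eif4g2 are in neither the macrophage nor the lysosome list used here. The macrophage markers C1qa, C1qb and C1qc were not among the first 10.

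Some members also had higher levels in the hexagons that held a Ctsb UMI. In the 305, 106 and 92 AAA hexagons with a Ctsb UMI, Ctsd had levels of 26.9, 32.5 and 46.2, against 14.4, 17.6 and 23.5 in hexagons without. Ctss had levels of 6.37, 12.7 and 7.40 in hexagons with Ctsb, against 3.18, 3.04 and 3.25 without. Both genes were thus higher with Ctsb in each of the 3 AAA mice. Ctsc did not show this, with levels of 1.14, 1.41 and 1.85 in hexagons with Ctsb, against 1.33, 1.47 and 1.28 without, nor did Ctsh, with levels of 4.10, 1.41 and 3.70, against 3.52, 3.46 and 3.02. Ctsz was lower with Ctsb in AAA mouse 2 (4.23, against 5.25 without) and higher in the other AAA mice. Hexagons of a mouse are not replicates, and no test was made of these values. The share of all genes that were higher with Ctsb was not counted.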

How the data were processed

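Seq-Scope was applied to aorta sections of 3 AAA and 3 control mice. The authors aligned reads with STARsolo 2.7.5c to mm10 and deposited raw UMI counts per gene and barcode, which are not normalized, in one matrix with exonic and whole-gene columns. Exonic counts of the second array lane were used here. Barcode positions were placed against 38 edges of the outlines drawn in the study (lowest residual SD over 7 starting scales 44.3 μm), because the labels do not map sections to mice. The touching edges of a section of control mouse 3 and a section of AAA mouse 3 were left out of the fit. Hexagons at that border may be assigned to the wrong condition. That control section held 40 of the 97 kept hexagons of control mouse 3. Mitochondrial genes and gene models named Gm (8551 genes) were dropped, and hexagons with 75 or more genes were kept as in the study's methods. The study states a hexagon number many times the 4939 found here from exonic counts, and also above the 23667 found with whole-gene counts. The labels and the study's methods differ in how the AngII dose and the age are stated.

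UMIs were summed per mouse and hexagon class and tested with edgeR 4.0.16 (R 4.3.3): filterByExpr, TMM, quasi-likelihood test, Benjamini-Hochberg adjustment over all tested genes. DESeq2 1.42.0 was an alternative. The fit was tested on simulated data. Of simulated log2 fold changes of 1, it called from 20.5% (by Gpnmb) to 51.1% (near against far), with 31.5% for AAA against control. For log2 fold changes of 2 the range was 79.8% (by Gpnmb) to 100% (smooth muscle hexagons). A change of 2-fold could thus often be missed. Comparisons within AAA mice had the mouse as a block. Replicates are mice, so p-values rest on the spread between mice. The test estimates this spread with information pooled over genes. A small p-value therefore does not show that the gene itself varied little between mice. The pair number marks aortas embedded together (labels for the pairing, section names of the study for the numbers), and deviations of same-numbered mice correlated by 0.078, 0.046 and 0.085 over 1180 genes.

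The members and lists were chosen with earlier results of these data known. Named genes were all 9 members, up to 6 genes of highest UMI total per list, and the 10 genes most like the summed members, of which 1 is not reported here. Alternatives covered the scaling, the filter, gene minimums of 50, 100 and none, whole-gene counts, the class limits, the block and leaving out each mouse. Exact intervals and the limit that a count of 0 allows (3 counts) cover counting error only. Total UMIs in kept hexagons were 543384 in AAA and 57239 in control mice.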

Additional observations from a re-analysis of the deposited data

Results flagged for a closer look

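Ctsl and Ctsz differed between hexagons with and without Gpnmb in opposite directions in AAA and control mice. The level of Ctsl with Gpnmb minus that without was on average 9.92 per 10000 UMIs in the 3 AAA mice, against -3.54 in the 3 control mice. For Ctsz it was 3.35 in AAA mice, against -2.71 in control mice. Each AAA mouse was above 0 and each control mouse below 0 for both genes, and the difference between the conditions was not tested. The control hexagons with Gpnmb numbered 17 in all and held 1833 UMIs with 0 of Ctsl and 0 of Ctsz, so a count of 0 fixed the control direction.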

How the results depend on the processing

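For AAA against control, 5 members were called, and the number was 1 with DESeq2, 2 with 50 or more genes per hexagon, 2 with 100 or more, 2 in hexagons without a Gpnmb UMI, 1 in hexagons without a macrophage marker UMI (both chosen after seeing the data), and 1 to 4 when each mouse was left out, with 1 (Ctsb) without control mouse 1. It was 4 with the pair as a replicate block, 6 with whole-gene counts, 5 without a filter and 5 when scaled by total UMIs. Without a gene minimum per hexagon Ctsl and Ctsh lost their calls, Ctsz gained one, and Ctsb, Ctsd and Ctss kept theirs. Ctsb passed in 15 of 16 alternatives, Ctsd in 11, Ctss in 10, Ctsl in 8 and Ctsh in 7, and all 7 members kept their sign in all 16. By Gpnmb, 1 member was called, against 0 without a filter, 0 with 100 or more genes, 3 when scaled by total UMIs, 4 with 50 or more genes, 4 with whole-gene counts, 3 for hexagons with 2 or more Gpnmb UMIs, 1 without the replicate block, 1 when hexagons were thinned to 75 UMIs and 0 to 2 when each mouse was left out. In macrophage hexagons it was 0 without a filter, 4 with 50 or more genes, 4 with 100 or more, 4 with whole-gene counts, and 0 to 1 when each mouse was left out. In smooth muscle hexagons it was 1, in place of 0, with 50 or more genes, with whole-gene counts and with the replicate block. Collagen against smooth muscle and near against far had 0 under every alternative run, and the block changed no other call of a member. Calls over all genes for AAA against control were 29 higher and 40 lower, against 68 and 5 without a filter, 155 and 46 with whole-gene counts and 79 and 80 without a gene minimum. By Gpnmb they were 1 and 0, against 0 and 45 without a filter and 12 and 0 with whole-gene counts. Leaving out the filter moved the median of all genes by 0.66 for AAA against control, -0.68 by Gpnmb, -1.01 in macrophage hexagons, 0.55 for collagen against smooth muscle and 0.44 for AAA against control in smooth muscle hexagons. No value that was called changed sign. The 27 values of members that did, all with adjusted p of 0.651 or more, were log2 fold changes of 4 comparisons. By Gpnmb they were those of Ctsa (-0.28 without a filter, -1.12 to 0.78 when each mouse was left out) and Ctsh (-0.63 without a filter, -0.31 with 100 or more genes, -0.86 with 2 or more Gpnmb UMIs, -0.22 to 0.24 when each mouse was left out), and in macrophage hexagons that of Ctsz (-0.16 without a filter). For collagen against smooth muscle they were those of Ctsb (0.21 without a filter, 0.13 with 100 or more genes), Ctsl (0.19 without a filter), Ctss (-0.13 with 50 or more genes, -0.37 with whole-gene counts) and Ctsz (0.50 without a filter, 0.029 scaled by total UMIs, 0.32 with 50 or more genes, 0.080 with 100 or more, 0.35 with whole-gene counts), with ranges of -0.82 to 0.022 for Ctsb, -1.01 to 0.054 for Ctsl, -0.31 to 0.40 for Ctss and -0.59 to 0.49 for Ctsz when each mouse was left out. For near against far they were those of Ctsb (-0.039 without a filter), Ctsa (-0.016) and Ctss (-0.18) with 100 or more genes, with ranges of -0.17 to 0.18 for Ctsb, -0.065 to 0.33 for Ctsd and -0.058 to 0.29 for Ctsh when each mouse was left out. The cause of these changes was not tested, and the 57239 control UMIs limit the precision for genes of low count.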

Other observations

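Tissue outside the 20 sections was sequenced as well and belongs to no group of the study's outlines. Left of the first section of the second lane, 1770 kept hexagons with 417128 UMIs held 1059 cathepsin UMIs (25.4 per 10000). On the first lane, 7393 kept hexagons with 1172061 UMIs held 1313 cathepsin UMIs (11.2 per 10000).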
